A study of Mus musculus with 12 samples.

Results

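Red blood cell transcripts were followed in purified myelin, the membrane stack that oligodendrocytes wrap around axons. The genes were chosen by symbol: Alas2, Slc4a1, Hba-a1, Hba-a2 and every symbol that starts with Hbb-b, which adds Hbb-b1, Hbb-b2 and Hbb-bh1. These are 7 of the 21937 genes listed. Only Alas2 and Slc4a1 had reads. The 5 globin genes were listed at 0 in all 12 libraries. The mice were wild type in every group, and were taken at P18 (postnatal day 18), P75 (postnatal day 75), 6 months and 24 months. Each age had 3 libraries. The authors report male c57Bl6/N mice. The libraries of 6 months came from separate mice. For the other ages the sources used here do not state whether each library is 1 mouse. The p-values therefore measure the spread between these libraries, which may be technical. Myelin was purified from brain, and whatever blood or vessel material the preparation retains is part of each library. Values are normalized read counts, that is, reads on a gene divided by a size factor of the library, and 1 read was worth 0.812 to 1.19 of this unit. The libraries held 20299052 to 27214385 reads on genes.

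Red blood cells carry oxygen on hemoglobin, a tetramer of alpha and beta globin chains with a heme group in each chain. Erythroid precursors make heme with their own form of the first enzyme of the pathway, 5-aminolevulinate synthase 2, encoded by Alas2. Other cells use Alas1. Slc4a1 encodes band 3, the chloride and bicarbonate exchanger that also anchors the membrane skeleton of the red cell. Mature mammalian red cells have no nucleus, while reticulocytes, the young cells released into the blood, still hold RNA. In the erythroid lineage the transcription factor GATA1 binds GATA motifs, and KLF1 binds CACCC motifs.

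Alas2 lies on the X chromosome and Slc4a1 on chromosome 11 (mm9, the build of the reads, with GENCODE vM1 on NCBIM37). Alas2 spans chrX:146981918-147005181 on the plus strand, with 11 exons after merging its transcripts. Slc4a1 spans chr11:102210138-102227517 on the minus strand, with 25. Because both genes carried more reads at the same age, the 250 bases before the start of a coding transcript are shown for each. The windows are chrX:146981668-146981917 (plus strand) and chr11:102226595-102226844 (minus strand), read 5′ to 3′. Capitals mark each match, on either strand, to the GATA-type motifs AGATAA or TGATAA, or to the KLF1-type motif CCACACCC. These motifs do not overlap in the windows shown.
Alas2: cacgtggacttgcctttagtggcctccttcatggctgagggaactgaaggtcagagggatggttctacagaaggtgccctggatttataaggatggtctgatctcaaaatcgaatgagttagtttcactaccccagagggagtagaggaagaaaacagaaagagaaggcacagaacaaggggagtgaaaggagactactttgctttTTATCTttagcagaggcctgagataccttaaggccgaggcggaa
Slc4a1: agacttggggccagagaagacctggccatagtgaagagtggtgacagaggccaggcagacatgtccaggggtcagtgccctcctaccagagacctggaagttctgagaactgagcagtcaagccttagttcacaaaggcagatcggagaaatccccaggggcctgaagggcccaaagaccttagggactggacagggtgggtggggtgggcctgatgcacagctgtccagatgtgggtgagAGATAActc
Each window held 1 match to AGATAA. It began 44 bases before the start in Alas2, on the reverse strand, and 9 bases before the start in Slc4a1. A match to AGATAA or TGATAA was found in 15.5% of 22233 promoter windows of the same length, and one to CCACACCC in 3.14%. Of the 7 red blood cell genes, 6 held a match to AGATAA or TGATAA and Hbb-bh1 did not. Hba-a1 and Hba-a2 matched TGATAA, and Hbb-b1 and Hbb-b2 matched AGATAA. None of the 7 windows held CCACACCC. The windows depend on the annotated start. The TGATAA match, within the same surrounding bases, began 22 bases before the start in Hba-a1 and 183 in Hba-a2. Bases after the annotated start were not searched, so a motif missing from a window need not be missing from the promoter. Such a match describes the letters of the window, and binding was not measured.

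Alas2 was higher in young myelin than afterwards. At P18 its normalized read counts were 471.75, 361.57 and 413.83 in replicates 1, 2 and 3, from 397, 320 and 412 reads. At P75 they were 44.09, 36.16 and 43.11, at 6 months 29.25, 57.7 and 36, and at 24 months 36.65, 38.92 and 32.4. Every P18 library lay above every later library, and the lowest P18 value was 6.27 times the highest later value. The libraries of the later ages overlapped each other. The mean was 415.7 ± 55.1 (SD, n = 3) at P18, against 39.4 ± 8.31 (SD, n = 9) over the later ages. This is a 10.6-fold difference of linear means. In abundance Alas2 ranked 7546 at P18 and 12670 at P75 among all listed genes, not corrected for length.

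Slc4a1 showed the same step with far fewer reads. Its normalized read counts were 40.4, 28.25 and 36.16 at P18, from 34, 25 and 36 reads. They were 3.01, 4.64 and 1.11 at P75, 4.06, 6.21 and 0.0 at 6 months, and 7.93, 6.49 and 2.78 at 24 months. The P18 libraries again stood above the 9 later libraries, with no overlap. The later libraries rested on 0 to 8 reads each, 38 reads in all. No read was found in replicate 3 of 6 months, which allows up to 3 of the 22802169 reads of that library (counting error only). The mean was 34.9 ± 6.17 (SD, n = 3) at P18 and 4.03 ± 2.59 (SD, n = 9) afterwards, 8.68 times lower. Slc4a1 passed the filter on low values, a mean of at least 10, through its P18 libraries alone.

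**Figure D1:**
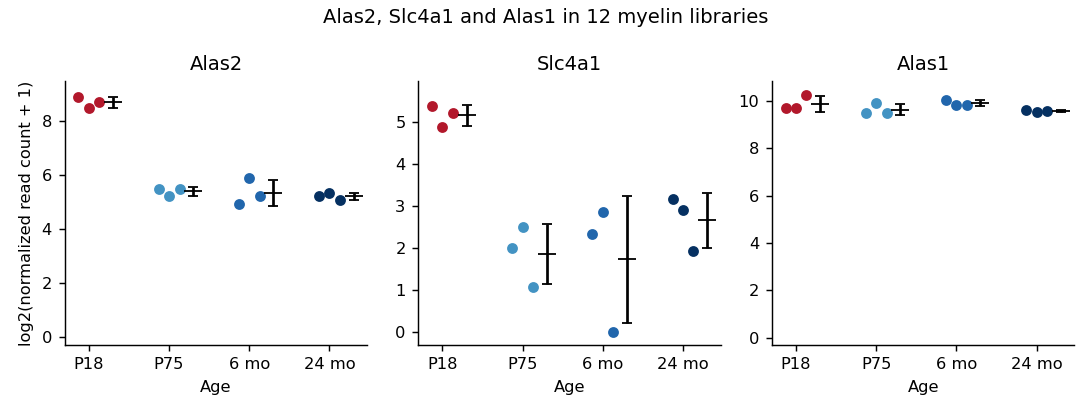
Log2(normalized read count + 1) of Alas2, Slc4a1 and Alas1 in each library (points, replicates 1 to 3 from left to right) at 4 ages, with the mean and SD of 3 libraries in black; each panel has its own y axis, from below 0. Alas2 and Slc4a1 are high in the 3 P18 libraries only, while Alas1 has no such step.

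From P18 to P75 the log2 change was −3.30 (SE 0.21) for Alas2 and −3.29 (SE 0.62) for Slc4a1, on the scale of log2(normalized read count + 1). Among the 14634 genes that passed the filter, these were the falls of rank 4 and 5, and 19 genes (0.13%) had a log2 change of −2 or lower. Slc4a1 entered this ranking through its P18 libraries alone, with a mean of 4.03 at the later ages, so its rank says little. The fall of Alas2 was known when the genes were chosen, so these changes are a description and no p-value is given. The background was wide: 22.9% of the tested genes fell and 25.9% rose at a false discovery rate of 0.1, in 22.6% the P75 libraries lay below those of P18, and in 14.5% all 3 P18 libraries lay above the 9 later ones. Scaling each library to the same total moved the median change of all genes from 0.02 to 0.14. On that scaling Alas2 changed by −3.18 and Slc4a1 by −3.19. In bulk RNA, fewer cells of a type and less RNA per cell cannot be told apart.

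**Figure D2:**
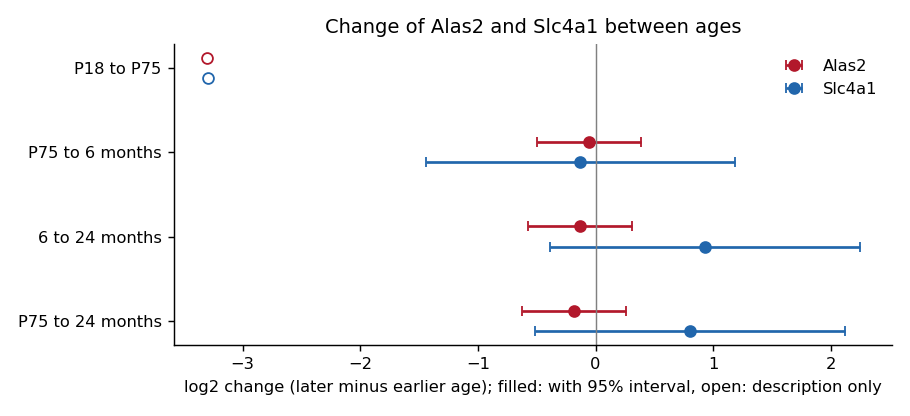
Log2 change of Alas2 (red) and Slc4a1 (blue) between ages, later minus earlier, from 1 limma fit over 12 libraries; the grey line is 0. The 3 comparisons among later ages carry 95% intervals, all of which include 0, and the P18 to P75 changes, −3.30 and −3.29, are open points without an interval because the genes were chosen with that fall known.

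After P75 no change was called for Alas2, and Slc4a1 had too few reads for a small change to be seen. The comparisons among the later ages used limma over all genes with Benjamini-Hochberg adjustment. From P75 to 6 months 60.6% of the 14634 tested genes were called. Alas2 was not, and Slc4a1, with 0 to 8 reads per library at these ages, passed the filter through P18 alone, so its share in that count says little. Alas2 changed by −0.06 (95% interval −0.50 to 0.39, limma adjusted p = 0.836) and Slc4a1 by −0.13 (−1.44 to 1.19, limma adjusted p = 0.876). From 6 to 24 months, where 29.3% were called, Alas2 changed by −0.13 (−0.57 to 0.31, limma adjusted p = 0.702). Slc4a1 changed by 0.93 (−0.38 to 2.25, limma adjusted p = 0.303), and by 0.07 without replicate 3 of 6 months, the library with no read. From P75 to 24 months, with 54.9% called, the values were −0.19 for Alas2 (limma adjusted p = 0.485) and 0.80 for Slc4a1 (limma adjusted p = 0.303), which was 0.41 to 1.17 with a library left out. Neither gene reached an unadjusted p of 0.05 in these comparisons with limma, edgeR or DESeq2. The intervals for Alas2 leave room for a fold of 0.647 to 1.31. Those for Slc4a1 are wider, and a fold of up to 4.75 from 6 to 24 months lies within them.

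The housekeeping form of the enzyme set the scale for Alas2. Alas1 had normalized read counts of 710.5 to 1204.31 over all libraries, and its P18 and P75 libraries overlapped. From P18 to P75 Alas1 changed by −0.24 (SE 0.14, limma adjusted p = 0.181), then rose by 0.28 to 6 months (limma adjusted p = 0.0973) and fell by 0.34 to 24 months (limma adjusted p = 0.0980). Reads on Alas2 amounted to 57.6%, 44.1% and 34.4% of those on Alas1 in the 3 P18 libraries. In the 9 later libraries this share ranged from 2.77% to 6.30%, with a mean of 4.80% ± 1.23 (SD, n = 9). Among the 3 later ages the share did not differ detectably (exact permutation test, 1680 arrangements, p = 0.664, adjusted over 2 ratios 0.664, smallest possible p 0.00357). Per kb of merged exons, Alas2 stood at 173 ± 22.9 at P18 (SD, n = 3), near the 220 ± 51.6 of Alas1. The merged exons of all annotated transcripts span 2403 bases in Alas2 and 4310 in Alas1, and the nearness depends on these lengths. At P75 the levels per kb were 17.1 ± 1.80 and 185 ± 31.9.

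The proportion of Slc4a1 to Alas2 rests on 25 to 36 Slc4a1 reads per library at P18 and on 0 to 8 later, so the later ratios carry a large counting error. At P18 there were 8.56, 7.81 and 8.74 Slc4a1 reads per 100 Alas2 reads, with a mean of 8.37 ± 0.49 (SD, n = 3). The means at P75, 6 months and 24 months were 7.40 ± 5.15, 8.22 ± 7.29 and 15.6 ± 6.59 (SD, n = 3 each), and their libraries overlapped. At this depth no difference among the 3 ages was detectable (exact permutation test, p = 0.304, adjusted over 2 ratios 0.607). Per kb of merged exons Slc4a1 was at 7.14 at P18, and at 0.597, 0.700 and 1.17 at the later ages. Of the exchangers of the same family, Slc4a2, found in many tissues, did not pass the test from P18 to P75, with a log2 change of 0.02 (limma adjusted p = 0.876). Slc4a3 rose by 0.43 (limma adjusted p = 0.00518).

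Alas2 shares exon bases with a neighbour. Apex2, which encodes a DNA repair endonuclease, is annotated on the opposite strand, and 311 of the 2403 exon bases of Alas2 overlap it. Whether the reads were counted by strand is not given in the sources used here, so reads in the shared bases cannot be told apart. Apex2 had values of 96.25, 94.91 and 112.5 at P18 and 54.11, 53.78 and 48.64 at P75. It returned to 108.87, 121.6 and 93.42 at 6 months, an age at which Alas2 was low. Apex2 fell by 0.94 from P18 to P75 (limma adjusted p = 0.000517) and rose by 1.03 from P75 to 6 months (limma adjusted p = 0.000147). No annotated gene overlaps Slc4a1 or the 5 globin genes.

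The alpha and beta globins, the most abundant products of the red cell lineage, were listed at 0 in every library at every age. The alpha globin genes Hba-a1 and Hba-a2 lie at chr11:32183511-32184465 and chr11:32196489-32197301 on the plus strand. The adult beta globin genes Hbb-b1 and Hbb-b2 lie at chr7:110975048-110976610 and chr7:110961038-110962510 on the minus strand, and the embryonic Hbb-bh1 at chr7:110990150-110991678. A listed 0 need not be an absent transcript. Of all listed genes, 3103 (14.1%) were at 0 in all libraries. They include 2 of 94 ribosomal protein symbols, Rpl26 among them, and Hmgcs1, which encodes an enzyme of cholesterol synthesis. Rpl26 and Hmgcs1 are used in most cells and were picked after their values were seen. No ratio of alpha to beta globin could therefore be formed, and no level of these 5 genes is given.

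The adult globins come as near-identical pairs, and the stretches below show how alike they are. They are coding bases 262 to 381 of the alpha genes and 298 to 417 of the beta genes, 5′ to 3′ from the GENCODE vM1 transcripts. The capital marks the position at which the members of a pair differ.
Hba-a1: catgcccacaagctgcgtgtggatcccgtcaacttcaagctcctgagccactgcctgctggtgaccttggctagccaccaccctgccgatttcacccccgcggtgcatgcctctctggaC
Hba-a2: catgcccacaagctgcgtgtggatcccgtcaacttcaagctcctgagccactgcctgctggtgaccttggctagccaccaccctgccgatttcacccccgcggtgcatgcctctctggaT
Hbb-b1: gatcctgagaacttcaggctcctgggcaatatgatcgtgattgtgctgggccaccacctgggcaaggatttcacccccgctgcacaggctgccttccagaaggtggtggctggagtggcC
Hbb-b2: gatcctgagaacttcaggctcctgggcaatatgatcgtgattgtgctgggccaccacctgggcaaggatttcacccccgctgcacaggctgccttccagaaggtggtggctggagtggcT
Over the whole coding sequence Hba-a1 and Hba-a2 were identical at 428 of 429 bases, and Hbb-b1 and Hbb-b2 at 443 of 444. Hbb-b1 and Hbb-bh1 shared 74.6% of aligned bases, and Alas1 and Alas2 62.9%.

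The pairs differ in how much of an exon can be placed. Of all 50-base windows inside exons, 9.06% in Hba-a1 and 12.3% in Hba-a2 occurred at 1 place in the mm9 genome. The share was 55.2% in Hbb-b1 and 49.1% in Hbb-b2. It was 100% in Alas2, Slc4a1 and Hbb-bh1. Rpl26 had 16.6%. The part of shared windows in the listed zeros was not tested, and the read length is not given in the sources used here.

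**Figure D3:**
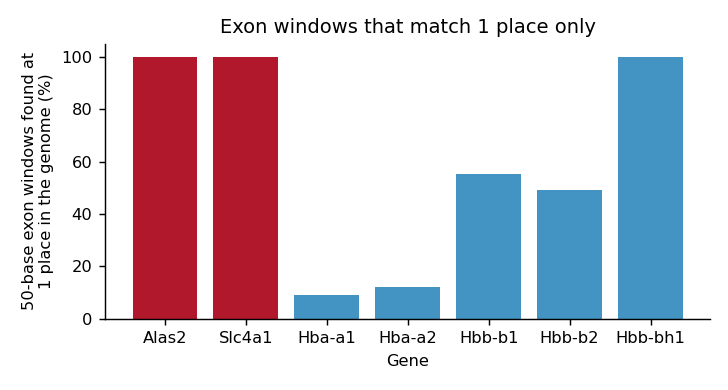
Share of 50-base windows inside the exons of each gene that occur at 1 place in the mm9 genome (y axis, percent), for the 2 genes with reads (red) and the 5 globin genes listed at 0 (blue). The alpha globins are lowest, at 9.06% and 12.3%, and Alas2, Slc4a1 and Hbb-bh1 are at 100%.

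Other globin genes had few reads or belong to other cells. Hbq1, a theta-type alpha globin, had 1 to 8 reads in each library. The embryonic Hba-x had 2 reads in 1 P18 library and none elsewhere, and the embryonic Hbb-y had 1 read in each of 2 later libraries. Neuroglobin, Ngb, and cytoglobin, Cygb, are globins of neurons and of many tissues. Ngb fell by 0.27 from P18 to P75 (limma adjusted p = 0.0849) and Cygb by 0.47 (limma adjusted p = 0.000635).

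Spna1, a defining gene of the red cell membrane, also had most of its reads at P18. It encodes the alpha chain of erythroid spectrin, the main protein of the membrane skeleton. Its values were 15.45, 11.3 and 9.04 at P18, from 13, 10 and 9 reads, and no later library had more than 1 read. The P18 libraries stood apart from all later ones. The gene of the beta chain, Spnb1, went the other way and rose by 0.40 from P18 to P75 (limma adjusted p = 0.0133). Ank1, erythroid ankyrin, changed by −0.01 (limma adjusted p = 0.947). Of 12 membrane and skeleton genes that passed the filter, 4 rose and 2 fell, beside 25.9% and 22.9% of all genes.

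With a mean under 10, Spna1 was tested only in the fit without a filter. There it fell by 3.01 (SE 0.38, limma adjusted p = 3.82e-05) from P18 to P75. In that fit 17.7% of all 18834 genes, of every level, fell. The share among genes with a mean under 10 was not computed. Of the 15 erythroid genes with a mean under 10, Spna1 fell and 0 rose. Its promoter is shown because the gene moved with Alas2 and Slc4a1; the window is chr1:176102657-176102906 on the plus strand, with capitals as above.
Spna1: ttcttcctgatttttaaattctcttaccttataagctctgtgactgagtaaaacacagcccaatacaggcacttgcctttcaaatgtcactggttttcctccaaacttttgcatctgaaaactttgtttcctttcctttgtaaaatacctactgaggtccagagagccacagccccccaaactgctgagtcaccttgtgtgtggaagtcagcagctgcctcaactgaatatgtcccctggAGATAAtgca
It held 1 match to AGATAA, which began 10 bases before the start. Of 11 other genes searched, 4 held a match to AGATAA or TGATAA: Spna1, Klf1, Epor and Trim10, a reticulocyte ubiquitin ligase added after its values were seen.

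Some defining regulators and enzymes of the erythroid lineage had few reads at every age, although 7 of 11 transcription factors and receptors in the erythroid list, genes that other cells also use, had a mean of at least 10. Gata1 had at most 1 read in a library. Klf1 had 1 to 7 reads, Hemgn, a nuclear protein of erythroid cells, 0 to 4, and Car1, a carbonic anhydrase of red cells, 0 to 4. None of these passed the test from P18 to P75 without a filter. Epor, the receptor for erythropoietin, had values of 70.11, 73.44 and 73.32 at P18 and 105.22, 114.04 and 126.02 at P75. It rose by 0.66 (SE 0.14, limma adjusted p = 0.00158), opposite to Alas2.

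**Figure D4:**
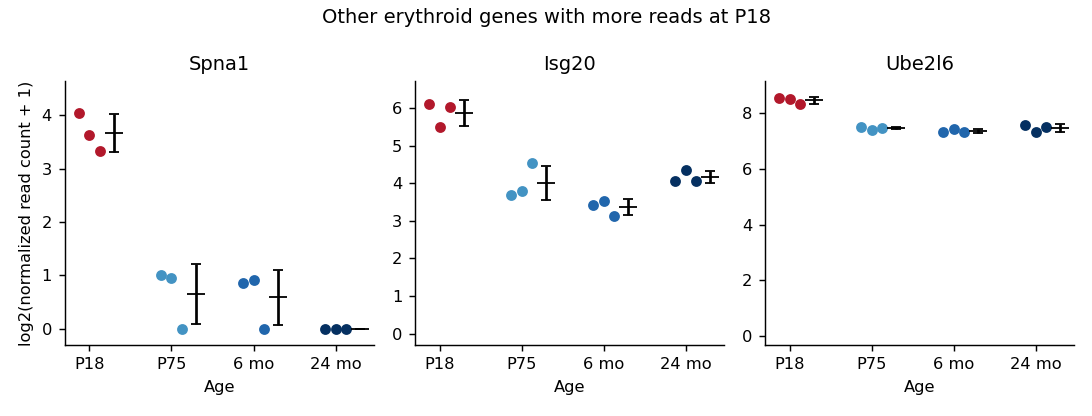
Log2(normalized read count + 1) of Spna1, Isg20 and Ube2l6 in each library (points, replicates 1 to 3 from left to right) at 4 ages, with the mean and SD of 3 libraries in black; each panel has its own y axis. Spna1 is near 0 after P18, while Isg20 and Ube2l6 keep reads at every age.

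A wider list of 60 other erythroid genes covered heme synthesis, the membrane and its skeleton, transcription factors and receptors, and enzymes of reticulocytes. Of these, 45 passed the filter. From P18 to P75, 19 fell, 10 rose and 16 did not pass the test, which makes 64.4% called against 48.8% of all genes. On the scaling to the same total, where the median change of all genes was 0.14, 11 fell and 15 rose. The share of all genes called on that scaling was not computed, so these counts have no background. Without that scaling the median log2 change of the list was −0.05, beside 0.02 for all genes. In 11 of the 45 genes (24.4%) all 3 P18 libraries lay above the later 9, beside 14.5% of all tested genes. Most genes of the list are active in many cell types besides red cells.

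Of 13 heme synthesis genes and mitochondrial carriers 8 fell, 0 rose and 5 did not pass the test, beside 22.9% of all genes that fell and 25.9% that rose. The median was −0.26. On the scaling to the same total 3 fell and 3 rose, again without a share of all genes to set beside them. Slc25a38, the mitochondrial glycine carrier of erythroid cells, fell most, by 0.84 (SE 0.10, limma adjusted p = 7.87e-06). It had 765.26, 855.34 and 778.43 at P18 and 414.87, 452.46 and 467.62 at P75. Cpox, which oxidizes coproporphyrinogen, fell by 0.65 (limma adjusted p = 7.29e-05). Fech, ferrochelatase, which inserts iron into the ring, fell by 0.28 (limma adjusted p = 0.0210), but its change on the same total, −0.15, did not pass the test.

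Among membrane and skeleton genes 4 of 12 rose and 2 fell, near the 25.9% and 22.9% of all genes. The largest rise was that of Icam4, an adhesion molecule of red cells, from 13.07, 7.91 and 13.06 to 21.04, 21.32 and 18.79, a log2 change of 0.82 (SE 0.26, limma adjusted p = 0.0186). Of 7 transcription factors and receptors, 4 rose and 1 fell, against the same shares. Kit, the stem cell factor receptor, rose by 0.83 (SE 0.10, limma adjusted p = 1.25e-05). Of 13 enzymes and other reticulocyte genes, 8 fell and 2 rose, beside 22.9% and 25.9% of all genes. Isg20, an exonuclease that interferon induces, fell from 68.92, 44.07 and 64.28 to 12.03, 12.98 and 22.11, by 1.87 (SE 0.28, limma adjusted p = 7.89e-05). Ube2l6, a conjugating enzyme for the ubiquitin-like ISG15, fell from 369.56, 354.79 and 317.4 to 179.38, 167.82 and 174.67, by 0.99 (SE 0.11, limma adjusted p = 5.85e-06). Both groups of 3 were apart in each of these genes.

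**Figure D5:**
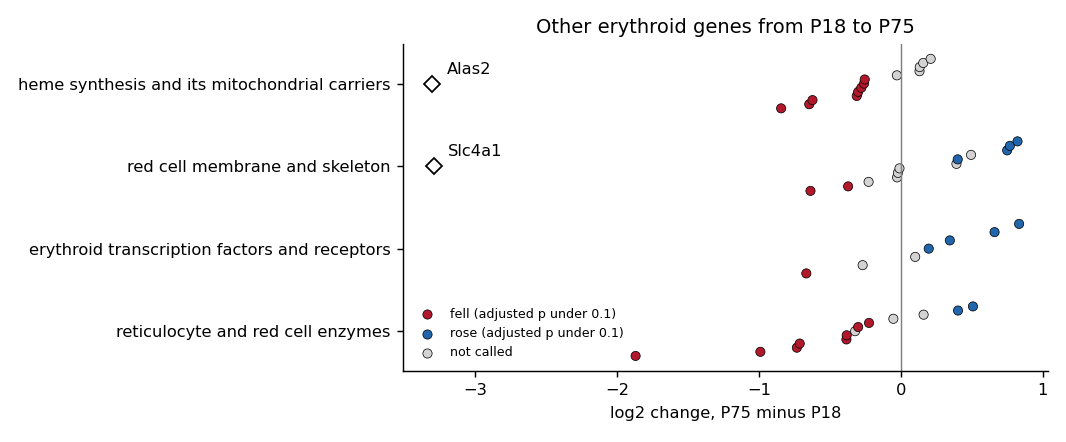
Log2 change from P18 to P75 (x axis, P75 minus P18) of 45 other erythroid genes in rows by role, red where a gene fell, blue where it rose and grey where it did not pass the test (limma, false discovery rate 0.1); open diamonds mark Alas2 and Slc4a1, chosen with their change known. The other genes lie between −1.87 and 0.83, and the diamonds at −3.30 and −3.29.

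Between the later ages the share of the list that was called was close to that of all genes at first. From 6 to 24 months it was higher with the main settings, but that count was not stable. It was 18, and 8 to 21 with a library left out. The share of all genes called in those fits was not computed, so that range has no background. From P75 to 6 months 14 of the 45 genes rose and 15 fell, 64.4% called against 60.6% of all genes (31.2% rose and 29.4% fell). Cpeb4, which binds messenger RNA tails, rose by 2.23 (SE 0.28, limma adjusted p = 7.56e-06). Aqp1, a water channel of red cells and other tissues, rose by 1.61 (SE 0.19, limma adjusted p = 4.91e-06). Tmod1, which caps actin filaments, rose by 1.54 (SE 0.11, limma adjusted p = 8.50e-08), and Zfpm1, a partner of GATA factors, by 0.96 (SE 0.17, limma adjusted p = 0.000253). Cd59a, an inhibitor of complement, fell by 1.09 (SE 0.14, limma adjusted p = 1.34e-05). From 6 to 24 months 9 rose and 9 fell, 40.0% against 29.3% of all genes (16.6% rose and 12.7% fell). On the scaling to the same total 3 rose and 6 fell, without a share of all genes to set beside them. Cpeb4 fell by 1.23 (limma adjusted p = 0.00769), Zfpm1 by 0.60 (limma adjusted p = 0.0260), Tmod1 by 0.59 (limma adjusted p = 0.00320) and Ank1, erythroid ankyrin, by 0.45 (limma adjusted p = 0.00782). Isg20 rose by 0.80 (limma adjusted p = 0.0545), a call that was lost without replicate 1 or 3 of 6 months or replicate 2 of 24 months.

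Markers of other blood and vessel cells moved in several directions. Of 6 granulocyte genes tested, 0 were called from P18 to P75, where 48.8% of all genes were. From P75 to 6 months 3 fell, beside 29.4% of all genes, and from 6 to 24 months 3 rose, beside 16.6%. Their summed level was 355.6 to 512.1 at P18, 422.9 to 613.6 at P75, 161.7 to 229.6 at 6 months and 308.3 to 720.1 at 24 months. S100a8, a calcium-binding protein of neutrophils, had values of 6.5, 6.21 and 2.92 at 6 months and 50.52, 113.53 and 13.88 at 24 months. It fell by 2.71 (limma adjusted p = 0.00297) and then rose by 2.90 (limma adjusted p = 0.00901). S100a9, its partner, fell by 2.37 (limma adjusted p = 0.000439) and rose by 2.46 (limma adjusted p = 0.00293). Over the same intervals no change was called for Alas2 or Slc4a1.

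Platelet genes summed to 566.8 to 723.2 at P18 and 316.2 to 399.8 at P75. Most of that difference was Gp1bb, with 369.56, 397.73 and 523.31 against 195.41, 196.56 and 130.45. From P18 to P75, where 22.9% of all genes fell and 25.9% rose, 2 of 6 platelet genes tested fell and 1 rose, and Gp6 was listed at 0. Pf4, platelet factor 4, changed by 0.25 (limma adjusted p = 0.478). Lymphocyte genes summed to 193.7 to 284.3 at P18 and 154.3 to 176.2 at P75, and 1 of 2 tested fell. Endothelial genes summed to 2313.6 to 2454.8 at P18 and 2588.5 to 3441.3 at P75. Of 15 tested, 4 rose, near the share of all genes, and 0 fell. Cldn5, a tight junction protein of brain vessels, changed by −0.21 (limma adjusted p = 0.229), and Pecam1, an endothelial adhesion molecule, by −0.0011 (limma adjusted p = 0.997). Of 12 myelin genes 10 fell from P18 to P75, against 22.9% of all genes, with a median change of −1.12. The part of these cells and of the myelin RNA in the values of Alas2 and Slc4a1 was not tested.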

How the data were processed

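Libraries were grouped by age from the labels, with 3 per age. The authors aligned reads to mm9 (TopHat2 2.0.8, SAMtools 0.1.19 in the submitters' notes), counted them per gene with HTSeq 0.5.4p1 and scaled the counts by size factors (DESeq). This linear signal was deposited, without correction for length. Every value was a whole multiple of 1 read (100%, tolerance 0.1), so reads were recovered.

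Ages were compared with limma 3.58.1 (R 4.3.3) on log2(value + 1), for 14634 genes whose mean reached 10. All 12 libraries entered 1 fit, and changes were called at a false discovery rate of 0.1. On simulated data for P18 to P75, 99% of 200 genes changed 3-fold were recovered among 14634, with 16 false calls. The simulation gave every gene the same spread beyond counting error and changed no other gene. In the data 48.8% of genes were called from P18 to P75, so the 99% describes the simulated setting only. Recovery was not tested separately for genes with few reads and a wide spread, such as Slc4a1 (SE 0.62). The 99% therefore does not apply to Slc4a1, whose interval from 6 to 24 months reaches a fold of 4.75. Alternatives were pseudocounts, filters, scalings, edgeR 4.0.16, DESeq2 1.42.0, a stricter rate, the replicate block and each library left out. Sequences came from NCBIM37 and GENCODE vM1; Python 3.11.15 was used.

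Genes and lists were chosen with earlier results of these data known. Named were the red blood cell genes, defining markers and the 5 erythroid genes of largest change per comparison. Spna1 is the listed symbol of alpha spectrin; Ahsp was not analysed here, and 1 named gene is not reported here. Same-numbered libraries come from different mice. Their deviations correlated positively in all 3 pairs of P75 and 6 months (0.101 to 0.187). In the other comparisons the mean was −0.11 to 0.05. All 3 pairs were negative for 6 and 24 months (−0.213 to −0.060), P18 and P75 (−0.151 to −0.026), and P75 and 24 months (−0.090 to −0.036).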

Additional observations from a re-analysis of the deposited data

How the results depend on the processing

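The calls were recomputed under each alternative. For Alas2 and Slc4a1, 0 calls were made in any comparison among P75, 6 and 24 months under every alternative run, including no filter, edgeR and DESeq2; with a mean over 100, Slc4a1 was not tested. Their median change from P18 to P75, −3.30, ranged from −3.42 to −3.12 with a library left out and was −2.43 with a pseudocount of 10, which shrinks changes of low values. The sign of the change of Slc4a1 from P75 to 6 months was not stable. It was 0.0357 with a pseudocount of 10, 0.0462 after quantile normalization, 0.22 with edgeR and 0.22 with DESeq2, and −0.69 to 0.74 with a library left out. With a library left out Alas2 ranged from −0.33 to 0.15 in that comparison and from −0.34 to 0.14 from 6 to 24 months. Slc4a1 ranged from 0.07 to 1.49 from 6 to 24 months and from 0.41 to 1.17 from P75 to 24 months with a library left out, and was 0.24 and 0.28 with a pseudocount of 10 and 0.45 and 0.50 after quantile normalization. The count of other erythroid genes called from 6 to 24 months, 18, was 9 with the same total of reads, 10 at a false discovery rate of 0.05 and 8 to 21 with a library left out; it was 8 and 10 without replicates 1 and 2 of 6 months, and 11 and 10 without replicates 1 and 2 of 24 months. The rise of Isg20 from 6 to 24 months was called or lost by the setting (adjusted p 0.0377 to 0.165 over its alternatives), and Zfpm1 was lost without replicate 2 of 6 months (adjusted p = 0.111). With the replicate block 28, 29 and 16 other erythroid genes were called in the 3 consecutive comparisons, the changes of Alas2 and Slc4a1 kept their values, and no call changed for them or for the 5 erythroid genes of largest change in each comparison. For the counts of other erythroid genes under these alternatives, the share of all genes called was not computed, so they have no background. Depth limits Slc4a1, with 0 to 8 reads per later library. The planned ratio of alpha to beta globin and the share of Hba-a1 were not run, since all adult globins are listed at 0.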

Other observations

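By Pearson's r over 12 libraries, 3 per age, with the mean standardized level of Alas2 and Slc4a1, the genes most like them were Wdr5, Cotl1, Mmab, Ube2l6, Mmadhc, Sox3, Dusp15, Deaf1, Smox and Cdc42, with r of 0.940 to 0.967. All 10 had their highest mean at P18. Sox3, a transcription factor of neural progenitors, had means of 69.6, 30.9, 24.5 and 22.9 at P18, P75, 6 and 24 months. Wdr5, a subunit of histone methyltransferase complexes, had means of 724.5, 530.2, 533.9 and 526.6. None of the 10 fell as far as Alas2, whose means were 415.7, 41.1, 41.0 and 35.99. The P18 libraries form a group of their own in these levels, so the likeness describes that step.
By deviations from the age means over the same libraries, the nearest genes were Ak3, Anp32e, Stk32b, Cercam, Hnrnpul2, 3110082I17Rik, Tenc1, Gucy2g, Gm973 and BC048355, with r of 0.850 to 0.928. The lists share 0 genes. The deviations of Alas2 and Slc4a1 themselves correlated with r = 0.322, and those of Slc4a1 rest on 0 to 8 reads per later library. The r listed are the highest among all genes that passed the filter and were not tested, so this list is a ranking only. Ak3, a mitochondrial adenylate kinase, had means of 2921.3, 2708.4, 2115.1 and 2170.3.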
